A study of Mus musculus with 6 samples.

Results

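Angiotensinogen, the endothelins and a small group of further genes that set the tone and permeability of blood vessels were followed through the stroma of the mouse gut. The group holds 10 genes, taken by symbol from the 33697 gene rows of the count tables: *Agt*, *Agtr1a*, *Ace*, *Edn1*, *Edn3*, *Ednra*, *Ednrb*, *Ece1*, *Nos3* and *Npr3*. All 10 were found, each in 1 row. The cells were lamina propria cells sorted as tdTomato+ from Flare-TSLP mice, a C57BL/6 knock-in line from 1 embryonic stem cell clone in which an IRES-tdTomato reporter follows the *Tslp* gene, and every group carried that allele. Mice were 8 to 12 weeks old, and females and males were used. There were 2 libraries from the proximal small intestine (proximal jejunum), 2 from the distal small intestine (distal ileum), 1 cecum library and 1 large intestine library, with no treated or reporter-negative group. The cecum and the large intestine are together called the large bowel below.

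These genes form 4 short signalling lines. Angiotensinogen, the product of *Agt*, is cut by renin and then by the angiotensin-converting enzyme encoded by *Ace*, and the resulting peptide constricts vessels through the receptor encoded by *Agtr1a*. The endothelins *Edn1* and *Edn3* are made as inactive precursors, cut by the membrane protease encoded by *Ece1*, and bind the type A receptor *Ednra*, a receptor of contractile cells, and the type B receptor *Ednrb*, which binds both peptides and also clears them. *Nos3* encodes the endothelial nitric oxide synthase, whose product relaxes smooth muscle. *Npr3* encodes the clearance receptor of the natriuretic peptides.

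After the cell limits of the study's methods, 102534 cells were kept, 11751 to 21299 per library, with a median of 6772 to 9413 UMIs (unique molecules counted) per cell and 109675337 to 206827504 UMIs on genes per library. Cells were placed in classes by marker genes that include no member of the group, and a class is called X-like because only markers name it. The gate gave 75058 fibroblast-like, 15479 LEC-like (lymphatic endothelial), 1352 BEC-like (blood endothelial), 1107 pericyte-like and 1158 smooth muscle-like cells. The smooth muscle-like class stands for smooth muscle cells or myofibroblasts. A cell led by smooth muscle markers was placed as pericyte-like where its pericyte marker score was at least 0.5 of its smooth muscle score. Some cells led by smooth muscle markers can therefore lie in the pericyte-like class. Within the fibroblast-like cells it gave 37124 trophocyte-like cells, which stand for the fibroblasts beneath the crypts, 6152 SEMF-like cells (subepithelial myofibroblasts), 3910 telocyte-like cells, 5454 universal fibroblast-like cells and 22418 others. The SEMF list held *Foxl1* and *Procr* (CD201), which the paper uses as telocyte markers, and the paper counts *Foxl1*+ telocytes among its SEMFs. The telocyte list held *Pdgfra*, *Bmp7*, *Wnt5a*, *Sox6* and *Lgr5* among others. *Procr* and *Nrg1* of the SEMF list were also leading genes of the telocyte-like class, so both classes can hold the paper's telocytes. A further 6380 cells carried markers of several classes, 38.5% of them with more than 1 hashtag, the antibody-borne barcode that tells pooled samples apart, and were left out. The sort marker itself was thin in the RNA: 1.38 to 4.39% of the kept cells had a UMI of tdTomato and 0.736 to 2.00% one of *Tslp*. Only 16 BEC-like cells came from the cecum, so blood endothelium was described in 5 libraries. Levels are CPM: within a library, a gene's UMIs were added up over the cells of a class and scaled to a class total of 1000000, and tests used the unscaled sums, so that the library and not the cell was the replicate. Cells were hashtagged so that several samples could share a library, and the paper reports several biological samples for the proximal and for the distal small intestine. Nothing in the labels ties a hashtag to a mouse or says that the libraries of a region came from separate mice, so the p-values measure the spread between libraries.

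*Agt* (chr8:125279301-125296716, minus strand of GRCm39) had its highest mean over 6 libraries in the SEMF-like cells, a rank that rested on the cecum and large intestine. Its level there was 91.8 and 145 CPM in the proximal libraries, 107 and 112 in the distal ones, 538 in the cecum library and 371 in the large intestinal one. The smooth muscle-like cells held 101 to 151 in the 4 small intestinal libraries, 206 in the cecum library and 229.8 in the large intestinal one, and the telocyte-like cells 69.4 to 123, 219 and 195. These 3 classes overlapped one another, and in the small intestine the smooth muscle-like cells, with a mean of 123 against 114, were above the SEMF-like cells in 3 of 4 libraries. Trophocyte-like cells stood far below, at 2.00 to 4.28 in the small intestine and at 19.4 and 19.3 in the cecum and large intestine. The trophocyte-gated cells of the large bowel lay mainly in other clusters, 40.1% of them in the main cluster of the universal fibroblast-like cells there. Barcodes with at most 100 UMIs, taken as free RNA, held *Agt* at 131 and 139 in these libraries and at 6.42 to 28.2 in the small intestine. The part of free RNA in the trophocyte-like values was not tested. In the 4 small intestinal libraries the SEMF-like cells averaged 114 ± 22.5 (SD, n = 4) against 2.96 ± 1.15 in the trophocyte-like cells of the same libraries, a log2 fold of 5.09 ± 0.13 (SE, adjusted p = 1.79e-06). Pericyte-like cells held 5.17 to 32.6 and LEC-like cells 0.752 to 6.36. Against all fibroblast-like cells, *Agt* was lower in LEC-like cells by a log2 fold of -4.09 ± 0.21 (adjusted p = 5.12e-07), lower in pericyte-like cells by -1.57 ± 0.42 (adjusted p = 0.011) and higher in smooth muscle-like cells by 2.01 ± 0.38 (adjusted p = 0.00159). The pericyte-like value moved to -0.92 without the large intestine and stayed past the threshold, but the call was lost with 10% free RNA subtracted (-2.03, adjusted p = 0.0958) and with no library block (-1.76, adjusted p = 0.0561). The smooth muscle-like call was lost with no library block (1.40, adjusted p = 0.102). Telocyte-like and SEMF-like cells did not differ past the threshold (-0.56 ± 0.19, adjusted p = 0.0715, 95% interval -0.92 to -0.19).

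The 300 bases around the *Agt* start are shown because *Agt* differed most between SEMF-like and trophocyte-like cells among the members tested there. The window lies at chr8:125296396-125296695 on the minus strand, reads 5′ to 3′ from 250 bases before the RefSeq start to 50 after it, and comes from the RefSeq promoter table of GRCm38.p6, which matched GRCm39 exactly in 1 place. Capitals mark TATAAA at 30 bases before the start and CAGGAA, an ETS core, at 59 bases before it and, on the opposite strand, at 172 bases before it.
Agt: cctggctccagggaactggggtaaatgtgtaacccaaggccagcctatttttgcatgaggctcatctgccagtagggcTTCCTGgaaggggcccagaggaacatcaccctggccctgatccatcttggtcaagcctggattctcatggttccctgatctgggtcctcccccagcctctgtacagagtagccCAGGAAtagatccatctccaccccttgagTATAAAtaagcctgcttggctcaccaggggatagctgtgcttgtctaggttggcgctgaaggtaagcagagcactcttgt
Of 32544 promoter windows of the same length in the table, 13.6% held TATAAA and 30.5% held CAGGAA on either strand. The other motifs searched, AGATAA of the GATA factors and GTAAACA of the forkhead factors, were in 11.2% and 3.66%. The *Agt* window had 54.7% GC and 1 CpG, against medians of 53% and 7 over all windows. A match describes the letters and is no evidence of binding.

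*Ace* (chr11:105858469-105880790, plus strand) was a gene of the blood endothelium. The BEC-like cells held 270.3 and 324 CPM in the proximal, 213 and 172 in the distal and 183 in the large intestinal library. In LEC-like cells it was 1.45 to 2.52 in the small intestine and 10.5 and 11.8 in the cecum and large intestine. BEC-like cells exceeded the LEC-like cells of the same libraries by a log2 fold of 6.76 ± 0.41 (adjusted p = 9.43e-07), with no overlap. Next in order came the universal fibroblast-like cells, gated on markers such as *Pi16*, with 4.10 to 22.5 in the small intestine, 59.3 in the cecum library and 15.7 in the large intestinal one. These gated cells lay mainly in different clusters in each region. In the small intestine 32.1% lay in a cluster that also held trophocyte-gated cells, and in the large bowel 58.6% lay in another. Pericyte-like cells had 2 UMIs of *Ace* in all 6 libraries against 3699 in fibroblast-like cells, a pooled ratio of 21.1 (95% counting interval 5.83 to 174) in favour of the fibroblast-like cells, and the fit across libraries called it (adjusted p = 0.000192). Of the fibroblast-like UMIs 2531 came from the cecum, and the fitted log2 fold moved from -4.12 to -4.92 without distal 2. LEC-like and fibroblast-like cells did not differ past the threshold (0.30 ± 0.33, adjusted p = 0.456).

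*Edn1* (chr13:42446301-42461466, plus strand), the endothelin of the vessel wall, had the same leading class. In BEC-like cells it stood at 129, 134, 112, 63.6 and 173 CPM in proximal 1, proximal 2, distal 1, distal 2 and the large intestine. The LEC-like cells had 39 UMIs in 15479 cells, between 0 and 2.42 CPM. The difference between both endothelia was a log2 fold of 8.43 ± 0.22 (adjusted p = 6.01e-09). Fibroblast-like cells held 0.114 to 1.35, and the 54 epithelial-like cells of the large intestine, the 1 library with enough of them, held 26.7 from 37 UMIs. The promoter windows of *Ace* (chr11:105858524-105858823, plus strand, the first of 2 in the table) and *Edn1* (chr13:42454702-42455001, plus strand) are set together because both genes peak in BEC-like cells. Capitals mark TATAAA read on the opposite strand 31 bases before the *Ace* start, and AGATAA read on the opposite strand 8 bases after the *Edn1* start.
Ace: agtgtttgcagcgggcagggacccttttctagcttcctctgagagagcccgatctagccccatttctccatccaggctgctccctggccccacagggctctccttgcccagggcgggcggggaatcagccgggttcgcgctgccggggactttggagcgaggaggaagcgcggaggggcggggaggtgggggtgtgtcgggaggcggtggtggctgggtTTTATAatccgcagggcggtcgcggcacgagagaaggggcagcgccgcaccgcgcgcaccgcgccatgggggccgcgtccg
Edn1: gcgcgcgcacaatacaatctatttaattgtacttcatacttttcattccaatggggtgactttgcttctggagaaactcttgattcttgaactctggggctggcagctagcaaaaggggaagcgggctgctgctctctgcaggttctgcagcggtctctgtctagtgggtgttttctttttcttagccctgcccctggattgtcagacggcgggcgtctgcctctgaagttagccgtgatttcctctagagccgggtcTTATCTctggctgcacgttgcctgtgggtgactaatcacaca
The *Ace* window had 69.7% GC and 29 CpG and the *Edn1* window 51.3% and 11. No motif of the 4 searched was found in both windows.

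*Nos3* (chr5:24569787-24589475, plus strand) marked both endothelia. BEC-like cells held 108, 141, 125, 111 and 102 CPM in their 5 libraries and LEC-like cells 17.7 to 30.6 in all 6. Both ranges stood apart from each other and from the fibroblast-like range of 0.240 to 0.416. The step from fibroblast-like to LEC-like was a log2 fold of 6.27 ± 0.15 (adjusted p = 2.11e-08) and that from LEC-like to BEC-like 2.41 ± 0.12 (adjusted p = 2.54e-07). With every cell thinned to 2500 UMIs, 16.7 to 28.2% of BEC-like and 4.31 to 6.68% of LEC-like cells had a *Nos3* UMI, against 0.07 to 0.09% of fibroblast-like cells, a class that should lack it. The median depth of these classes before thinning was 5972.5, 6068 and 8383 UMIs per cell, and the mean unthinned shares were 50.6%, 13.2% and 0.30%. In smooth muscle-like cells *Nos3* had 14 UMIs in all, 0 in both large bowel libraries. Its call against fibroblast-like cells (1.63 ± 0.58, adjusted p = 0.0465) was lost without any 1 of the 4 small intestinal libraries, at log2 folds of 1.29 to 1.60 and adjusted p of 0.089 to 0.197. It was also lost with no filter on low counts (1.57, adjusted p = 0.0805), with a stricter cell filter (1.71, adjusted p = 0.0547) and with unsupervised clusters (adjusted p = 0.714). The clusters left 2 libraries, and at these counts their fitted fold is not taken as a measured size.

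*Ece1* (chr4:137589530-137692542, plus strand), the converting enzyme, had UMIs in every class and was highest in the lymphatics. In free RNA it was 118 to 297 CPM. The B or plasma cell-like cells, at 16.1 to 32.5, lay below that, and whether free RNA gave these UMIs was not tested. LEC-like cells held 830.5, 771, 802 and 806 CPM in the small intestinal libraries, 991 in the cecum library and 934 in the large intestinal one. Telocyte-like cells came next with 322 to 716 and BEC-like cells after them with 321 to 471, and the LEC-like range overlapped neither. BEC-like cells were below LEC-like cells of the same library in 5 of 5 libraries (log2 fold -0.90 ± 0.11, adjusted p = 9.13e-05). LEC-like cells exceeded fibroblast-like cells, at 74.3 to 176, by 2.97 ± 0.13 (adjusted p = 2.8e-07), and telocyte-like cells exceeded SEMF-like cells, at 96.0 to 188, by 1.87 ± 0.16 (adjusted p = 5.25e-05). Thus the class with the highest *Edn1*, the BEC-like cells, and the class with the highest *Ece1* were different classes.

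*Edn3* (chr2:174602088-174625835, plus strand) was the endothelin of the fibroblasts. Telocyte-like cells held 14.5, 17.2, 11.4 and 10.2 CPM in the small intestinal libraries, 20.4 in the cecum library and 26.1 in the large intestinal one. A cluster within the other fibroblasts, led by *Ptn*, *Dlg2* and *Scg2* and given under the other observations, held more than the telocyte-like cells in each small intestinal library. Trophocyte-like cells held 4.56 to 12.9 in the 6 libraries and SEMF-like cells 0.345 to 1.62 in the small intestine, but 10.2 and 8.11 in the cecum and large intestine. In the small intestine SEMF-like cells were below trophocyte-like cells by a log2 fold of -3.26 ± 0.45 (adjusted p = 0.00109), a value that moved to -4.41 without proximal 2. Telocyte-like cells exceeded SEMF-like cells by 2.68 ± 0.60 (adjusted p = 0.0124), with 3.47 when the cecum was left out. This call was lost with 10% free RNA subtracted (3.29, adjusted p = 0.0502), with a stricter gate (2.58, adjusted p = 0.0541) and with no library block (2.49, adjusted p = 0.0711). Endothelium held little of it: 20 UMIs in all LEC-like cells and 3 in BEC-like cells. Its fold between LEC-like and fibroblast-like cells was -4.77 ± 0.34 (adjusted p = 4.33e-06). The 9 UMIs in pericyte-like cells all came from the large intestine, and without that library the pericyte-like cells had none.

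*Ednra* (chr8:78386590-78451552, minus strand) was high in 3 contractile or subepithelial classes. Pericyte-like cells held 511 to 641 CPM with a median of 566, telocyte-like cells 339 to 671 with a median of 508, and smooth muscle-like cells 191 to 380.4 with a median of 222. The pericyte-like and telocyte-like ranges overlapped, and the smooth muscle-like range overlapped only the lower end of the telocyte-like one. Against fibroblast-like cells, at 41.7 to 213, the log2 fold was 2.78 ± 0.21 in pericyte-like cells (adjusted p = 9.59e-07), 1.56 ± 0.14 in smooth muscle-like cells (adjusted p = 6.88e-06) and -4.63 ± 0.19 in LEC-like cells (adjusted p = 1.55e-07). Telocyte-like cells exceeded SEMF-like cells (82.3 to 144) by 2.18 ± 0.18 (adjusted p = 4.58e-05). In the endothelia it was low, with 1.98 to 6.81 in LEC-like and 2.89 to 18.5 in BEC-like cells. The call of that 3.89-fold difference (adjusted p = 0.0095, higher in BEC-like cells in 3 of 5 libraries) was lost without proximal 2 (log2 fold 1.68, adjusted p = 0.0557). The *Ednra* locus overlaps the gene *4933431K23Rik* on the other strand.

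*Ednrb* (chr14:104052053-104081900, minus strand) had its highest mean in the telocyte-like cells, which were above the pericyte-like cells in 5 of 6 libraries and below them in the large intestine (341 against 561). Its level there was 1269.6 and 1763 CPM in the proximal, 1426 and 1408 in the distal, 919 in the cecum and 341 in the large intestinal library. SEMF-like cells of the same 6 libraries held 2.94, 5.84, 1.65, 3.92, 15.7 and 53.2. The receptor thus set both gated subsets apart, by a log2 fold of 7.44 ± 0.98 (adjusted p = 0.00075), and by 8.11 without the large intestine. In the large bowel the gates did not fully separate kinds of cells. There 42.7% of the telocyte-gated and 15.7% of the SEMF-gated cells lay in the same cluster, a limit of every fit between these classes. Pericyte-like cells held 239 to 736, 17.2-fold the fibroblast-like level (log2 fold 4.10 ± 0.50, adjusted p = 4.58e-05), and smooth muscle-like cells 72.5 to 197 (2.05 ± 0.52, adjusted p = 0.00974). The smooth muscle-like call was lost with no library block (1.34, adjusted p = 0.114) and with unsupervised clusters, which left 2 libraries (-0.15, adjusted p = 0.725). BEC-like cells held 163 to 226 and exceeded LEC-like cells, at 63.7 to 123, in 5 of 5 libraries (1.24 ± 0.17, adjusted p = 0.000222). LEC-like cells were above fibroblast-like cells in 5 of 6 libraries (1.73 ± 0.63, adjusted p = 0.0391), and this call was lost without any 1 of the 4 small intestinal libraries, at 1.69, 1.49, 1.34 and 1.35 with adjusted p of 0.0913, 0.128, 0.114 and 0.113. It was also lost with free RNA subtracted, a stricter gate, unsupervised clusters or no library block, at log2 folds of 0.99 to 1.93 and adjusted p of 0.0709 to 0.157. The glia-like cells, of which 3 libraries had at least 20, held 75.7, 157 and 95.5.

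Both receptors were read in the same cells. After thinning to 2500 UMIs, 46.7 to 67.3% of telocyte-like cells had an *Ednra* UMI and 43.0 to 76.4% an *Ednrb* UMI, against 0 to 4.35% and 0 to 2.33% of B or plasma cell-like cells, a class that should lack them. Median depth before thinning was 8999.5 UMIs in the telocyte-like and 13405.5 in the B or plasma cell-like cells, and the mean unthinned shares in telocyte-like cells were 80.9% and 84.2%. Without thinning, 79.2, 74.5, 70.4, 73.1, 67.6 and 59.7% of the telocyte-like cells of proximal 1, proximal 2, distal 1, distal 2, cecum and large intestine had both transcripts. In pericyte-like cells, at a median depth of 6301 UMIs, the share was 56.6, 62.1, 46.4, 60.2, 41.8 and 38.4%. Shares without thinning depend on depth, and the joint shares were not tested against the product of the single shares. The promoter windows of both receptors are shown because both transcripts were found in the same cells. They lie at chr8:78451032-78451331 for *Ednra* and at chr14:104081088-104081387 for *Ednrb*, both on the minus strand. Capitals mark CAGGAA 116 bases before the *Ednra* start, and none of the 4 motifs occurred in the *Ednrb* window.
Ednra: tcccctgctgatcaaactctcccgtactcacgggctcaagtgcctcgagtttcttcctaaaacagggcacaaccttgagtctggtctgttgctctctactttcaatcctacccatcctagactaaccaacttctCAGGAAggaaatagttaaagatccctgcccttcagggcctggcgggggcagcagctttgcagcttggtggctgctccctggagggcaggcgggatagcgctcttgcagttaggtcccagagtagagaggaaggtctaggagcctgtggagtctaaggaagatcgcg
Ednrb: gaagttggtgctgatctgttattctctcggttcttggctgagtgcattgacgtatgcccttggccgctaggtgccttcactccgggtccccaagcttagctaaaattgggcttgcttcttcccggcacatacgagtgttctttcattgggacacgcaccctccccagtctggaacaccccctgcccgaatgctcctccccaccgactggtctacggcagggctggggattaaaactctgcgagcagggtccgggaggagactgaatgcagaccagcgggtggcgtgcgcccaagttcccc
The windows had 54.7% GC with 8 CpG and 58.7% GC with 15 CpG.

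*Agtr1a* (chr13:30518942-30566850, plus strand), the angiotensin receptor, was spread over fibroblasts, with its highest means in glia-like and pericyte-like cells. Pericyte-like cells held 138, 143, 275, 175, 188 and 132 CPM in proximal 1, proximal 2, distal 1, distal 2, cecum and large intestine, above the fibroblast-like 99.1, 95.2, 82.8, 84.2, 99.3 and 37.1 in 6 of 6 libraries (log2 fold 0.96 ± 0.18, adjusted p = 0.00123). The glia-like cells of 3 small intestinal libraries had the highest mean, with 294, 165 and 115 from 164 UMIs, and overlapped the pericyte-like cells. Smooth muscle-like cells held only 4.53 to 16.5 (-2.75 ± 0.12, adjusted p = 3.89e-08) and LEC-like cells 0.909 to 4.14 (-4.90 ± 0.13, adjusted p = 2.64e-08). Cells led by smooth muscle markers but gated as pericyte-like are not in the smooth muscle-like value. In the small intestine 65.1% of the pericyte-like and 20.0% of the smooth muscle-like cells lay in the same cluster. Among the subepithelial cells the order was the reverse of that of *Ednrb*: SEMF-like cells held 19.4 to 87.7 and telocyte-like cells 6.26 to 22.4 (telocyte-like over SEMF-like -2.23 ± 0.22, adjusted p = 0.000138). Trophocyte-like cells were a little above SEMF-like cells in the small intestine (SEMF-like over trophocyte-like -0.58 ± 0.06, adjusted p = 0.000365), a call lost with unsupervised clusters (-0.16, adjusted p = 0.0521). Smooth muscle-like and telocyte-like cells, both rich in *Agt*, thus held little *Agtr1a*, while both genes had levels well above those of LEC-like cells in the SEMF-like class. *Agtr1a* has a close paralogue, *Agtr1b*, and how reads were split between them was not tested.

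*Npr3* (chr15:11839982-11907373, minus strand) was highest in telocyte-like cells, at 124, 78.2, 121, 28.5, 50.1 and 5.29 CPM in the order of libraries above, and in pericyte-like cells, at 51.7, 28.4, 30.6, 99.2, 29.8 and 11.4. Its spread between libraries was wide, and both ranges overlapped. Telocyte-like cells exceeded SEMF-like cells in 5 of 6 libraries (4.96 ± 0.96, adjusted p = 0.00616), with 4.36 without proximal 1 and 5.74 without the large intestine. Pericyte-like cells exceeded fibroblast-like cells, at 3.81 to 9.58, in 6 of 6 (2.43 ± 0.42, adjusted p = 0.000627), with 1.83 without distal 2. In the small intestine SEMF-like cells, at 0.599 to 1.55, were below trophocyte-like cells, at 4.85 to 10.4 (-3.13 ± 0.36, adjusted p = 0.000433), with -3.80 without distal 2. The BEC-like excess over LEC-like cells (0.83 ± 0.24, adjusted p = 0.0173) was lost without proximal 1 (0.77, adjusted p = 0.0871) or proximal 2 (0.72, adjusted p = 0.0824) and with no library block (0.73, adjusted p = 0.222).

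**Figure D1:**
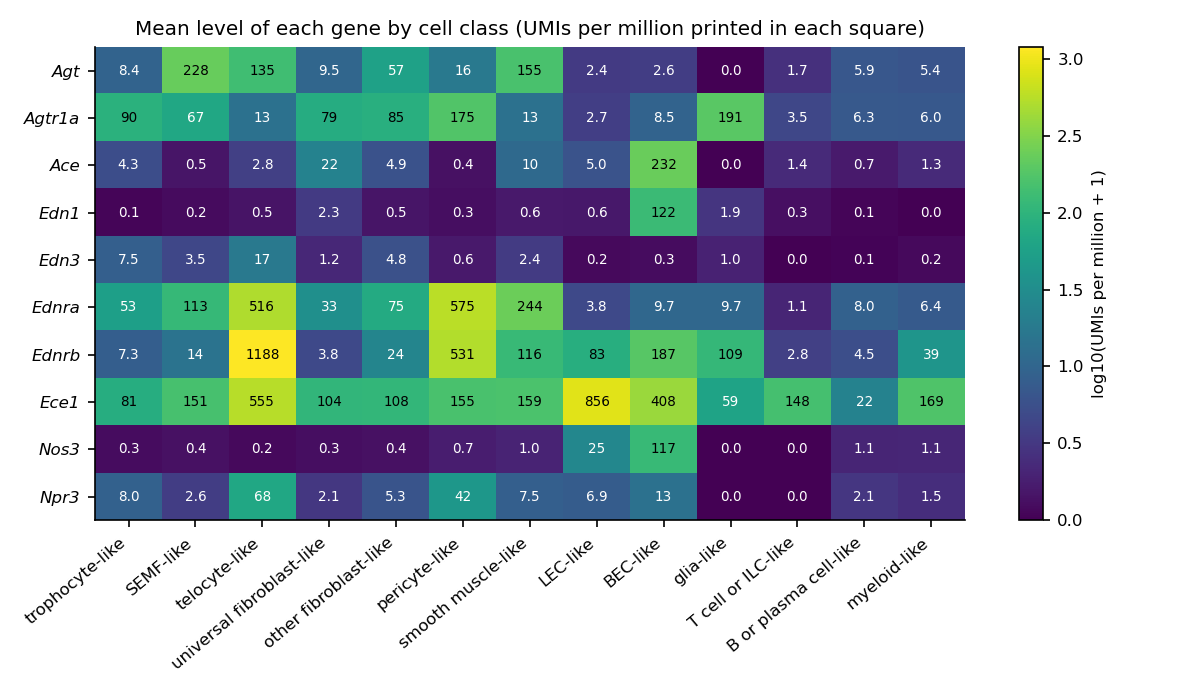
Mean level of each of the 10 genes (rows) in 13 cell classes (columns), in CPM averaged over the libraries with at least 20 cells of the class; colour is log10(CPM + 1). *Edn1*, *Ace* and *Nos3* peak in BEC-like cells, *Ece1* in LEC-like cells, *Ednrb* and *Edn3* in telocyte-like cells, and the mean of *Agt* over libraries in SEMF-like cells (228), with smooth muscle-like cells next (155).

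**Figure D2:**
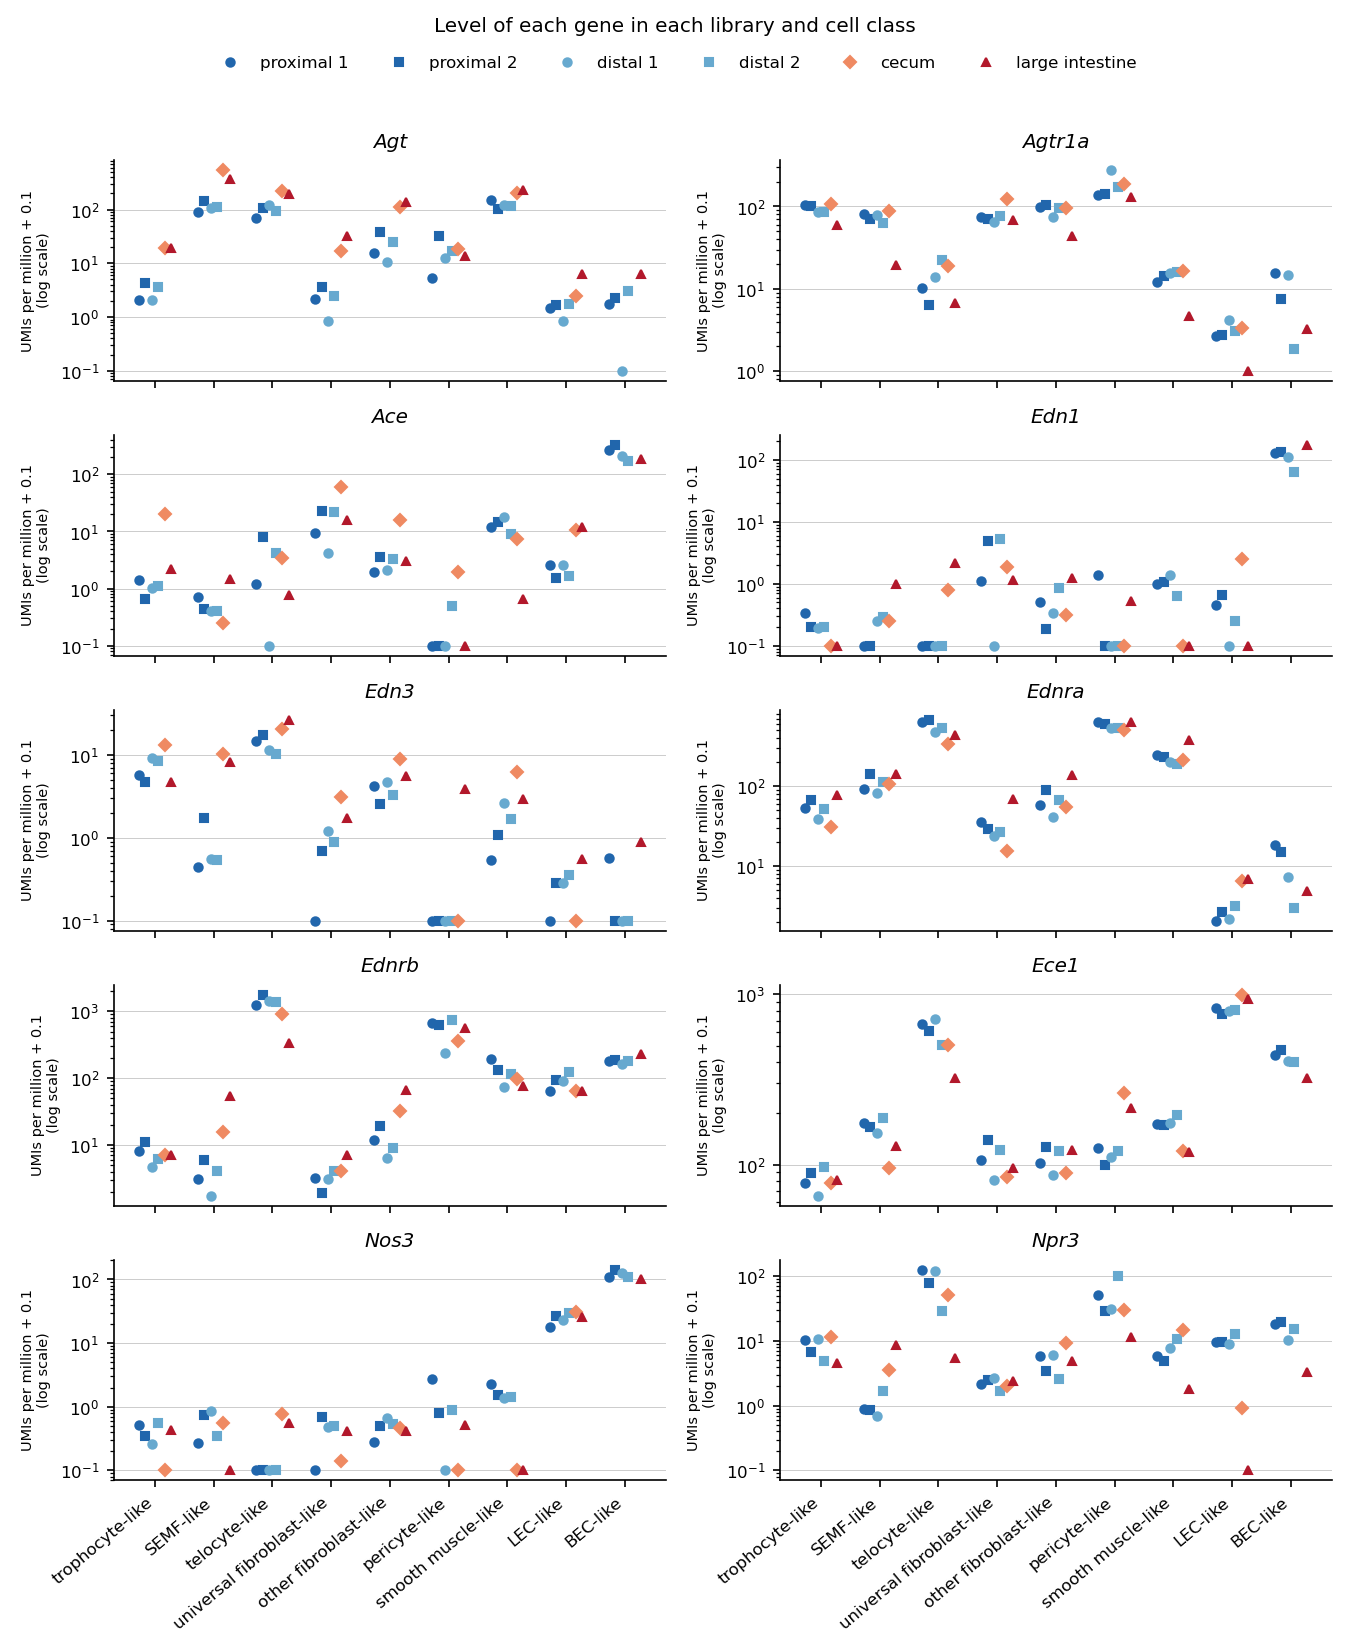
Level of each gene (vertical axis, CPM + 0.1, log scale) in each library (symbol) and 9 cell classes (horizontal axis). *Agt* of the cecum and large intestine lies above the 4 small intestinal libraries in every class shown except pericyte-like cells, where it lies within their range. BEC-like cells have no cecum point. Free RNA held *Agt* at 131 and 139 CPM in the cecum and large intestine and at 6.42 to 28.2 in the small intestine, and its part was not tested. The gated SEMF-like, telocyte-like, trophocyte-like and smooth muscle-like cells lay mainly in different clusters in each region.

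Counted per comparison, 7 of the 10 members were called between LEC-like and fibroblast-like cells, 3 higher and 4 lower, where 67.4% of 18017 tested genes were called. The median log2 fold was 0.28 over the members and -0.05 over all genes. Between BEC-like and LEC-like cells 8 of 8 tested members were called, 7 higher and 1 lower (background 57.4%; medians 1.85 and -0.01), *Agt* and *Edn3* being too low to test, and without proximal 1 the count was 5, where 49.6% of all genes were called. Pericyte-like against fibroblast-like cells gave 7 of 10, 4 higher and 3 lower (40.9%; 0.61 and -0.19). Smooth muscle-like against fibroblast-like cells gave 6 of 10, 4 higher and 2 lower (38.2%; 1.07 and -0.11). SEMF-like against trophocyte-like cells in the small intestine gave 8 of 9, 3 higher and 5 lower (59.6%; -0.58 and -0.01), *Edn1* not being tested. Telocyte-like against SEMF-like cells gave 6 of 7, 5 higher and 1 lower (17.9%; 2.18 and -0.01), with *Ace*, *Edn1* and *Nos3* not tested. In the 2 endothelial comparisons and in SEMF-like against trophocyte-like cells most tested genes were called, so a count of called members near that share says little about the members.

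**Figure D3:**
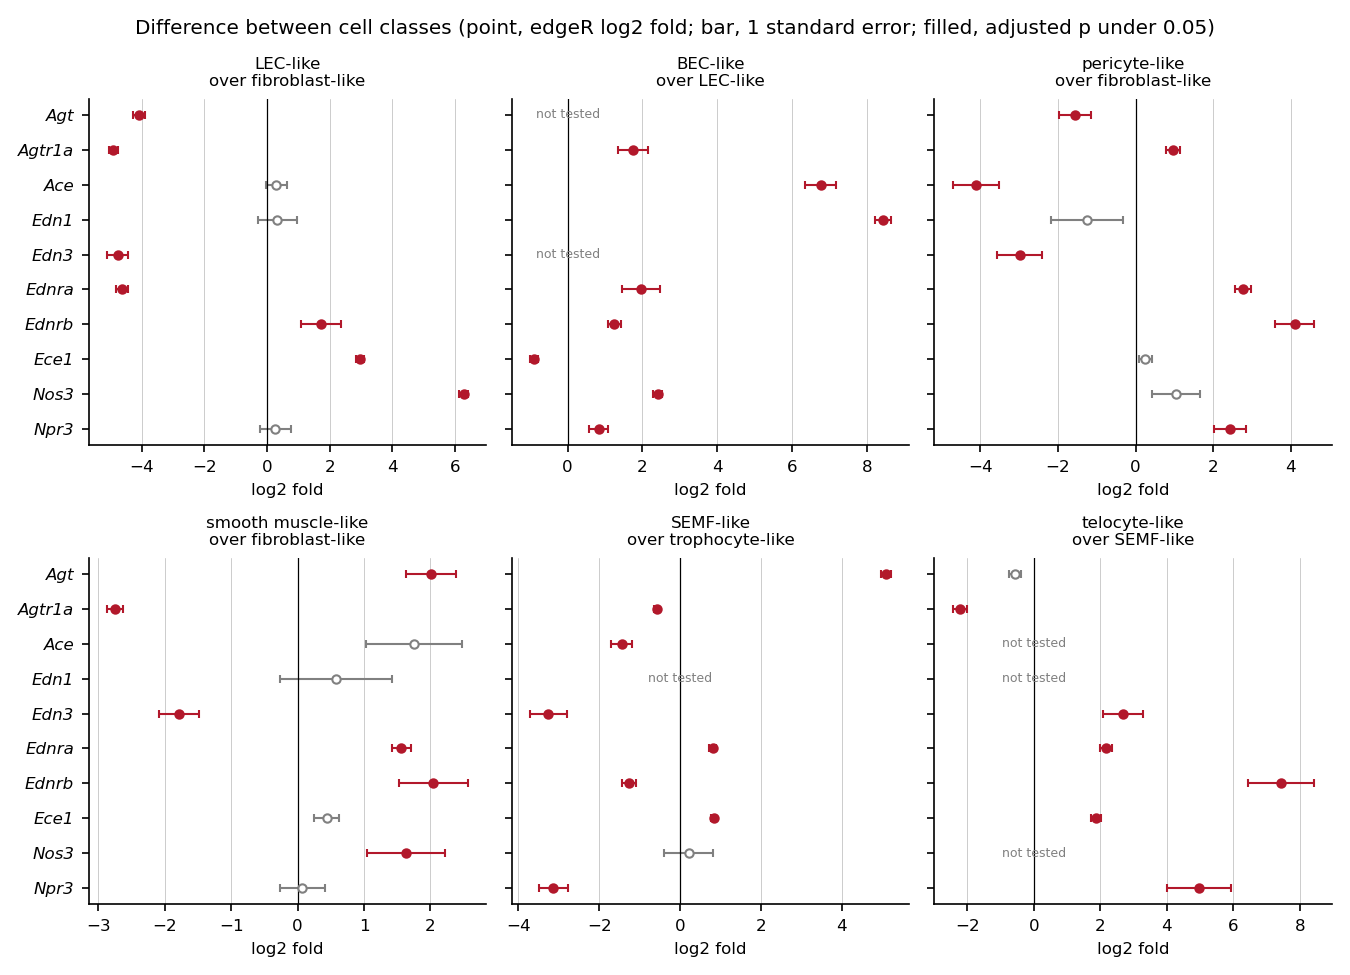
Log2 fold of each member (rows) in the 6 comparisons between cell classes (panels); points are edgeR estimates, bars 1 standard error, filled points adjusted p under 0.05. The longest shifts are *Edn1* (8.43) and *Ace* (6.76) in BEC-like over LEC-like cells, and *Ednrb* (7.44) in telocyte-like over SEMF-like cells.

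A list of 42 further genes of these pathways was read in the same fits, where the shares of all genes called were 67.4, 57.4, 40.9, 38.2, 59.6 and 17.9% in the order below, and the share of the list called in the first, 20 of 30, was near that background. Between LEC-like and fibroblast-like cells 6 of 30 tested rose and 14 fell: the cyclic nucleotide phosphodiesterases *Pde3a* (-5.25 ± 0.16, adjusted p = 3.57e-08) and *Pde5a* (-4.90 ± 0.18, adjusted p = 8.35e-08) and the kinin receptor *Bdkrb1* (-4.54 ± 0.35, adjusted p = 7.52e-06) were lower in LEC-like cells, and *Nppc*, the natriuretic peptide that *Npr3* clears, was higher (5.08 ± 0.44, adjusted p = 1.36e-05). Between the endothelia 10 of 20 were higher in BEC-like cells and 7 lower. The apelin receptor *Aplnr* (196 ± 44.8 against 0.226 ± 0.172 CPM, n = 5), its ligand *Apln* (71.1 ± 14.0 against 0.166 ± 0.20) and the *Nos3*-binding adaptor *Nostrin* (172 ± 22.6 against 1.93 ± 2.99) were higher in BEC-like cells and *Nppc* in LEC-like cells (19.8 ± 5.01 against 0.162 ± 0.254). In pericyte-like cells 11 of 30 were higher than in fibroblast-like cells and 12 lower, among the former *Rgs4*, a brake on G protein signalling (771 ± 92.0 against 2.84 ± 1.52, n = 6), and *Nostrin* (53.2 ± 21.0 against 1.87 ± 0.173). Smooth muscle-like cells had 9 of 30 higher and 10 lower, among the former *Bdkrb2* (487 ± 84.8 against 50.8 ± 72.6) and the natriuretic peptide protease *Corin* (9.63 ± 9.11 against 0.234 ± 0.126). In SEMF-like against trophocyte-like cells 8 of 29 were higher, with *Agtr1b* at 104 ± 19.3 against 16.8 ± 2.14 (n = 4) and the vasopressin receptor *Avpr1a* at 27.3 ± 5.38 against 2.63 ± 2.02, and 16 lower, with *Enpep*, an angiotensin-cleaving aminopeptidase, at 2.13 ± 0.227 against 27.5 ± 1.68. Both were reversed from SEMF-like to telocyte-like cells, where *Agtr1b* fell (-2.10 ± 0.25, adjusted p = 0.000389) and *Enpep* rose (1.99 ± 0.31, adjusted p = 0.00182), among 6 of 24 higher and 2 lower.

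The regions of the gut were compared next, within a class. In fibroblast-like cells 4 of 10 members were higher in the large bowel than in the small intestine and 0 lower, where 31.1% of 19874 genes were called, with a median log2 fold of 0.97 over the members and -0.01 over all genes. *Agt* was 14.2, 33.4, 7.91 and 26.0 CPM in the small intestinal libraries and 113 and 136 in the cecum and large intestine (2.68 ± 0.45, adjusted p = 0.00703). *Ednrb* was 18.4, 21.8, 8.58 and 13.0 against 62.0 and 136 (2.72 ± 0.37, adjusted p = 0.00385), and 2.12 without the large intestine. *Ace* was 1.09 to 1.94 against 25.8 and 4.44 (3.45 ± 0.59, adjusted p = 0.00735). The cecum set the size of this difference, since the log2 fold was 1.61 without it and 4.24 without the large intestine. *Edn1* was scarce in both regions, at 0.114 to 0.397 against 0.611 and 1.35 (2.17 ± 0.49, adjusted p = 0.0177), and was lost without the large intestine (1.56, adjusted p = 0.0952) and with free RNA subtracted (3.67, adjusted p = 0.0623). Among the members that did not pass, *Ednra* was 41.7 to 86.1 against 59.3 and 213 (1.11 ± 0.43, adjusted p = 0.0845), and *Edn3* 3.69 to 7.91 against 8.24 and 11.05 (0.83 ± 0.31, adjusted p = 0.0811), passing without distal 1 (1.12, adjusted p = 0.0154) and with DESeq2 (0.84, adjusted p = 0.0342). Without the cecum 7 members were called, where 18.6% of all genes were. The 4 libraries that carry the same hashtag set, proximal 1, distal 1, cecum and large intestine, gave 3.49 for *Agt*, 2.86 for *Ednrb*, 3.64 for *Ace* and 2.44 for *Edn1*, with adjusted p of 0.00519, 0.0235, 0.0489 and 0.0475.

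The fibroblast-like class held other kinds of cells in each region, which moved with these differences. Trophocyte-like cells were 8383 of 11830 and 6085 of 9898 fibroblast-like cells in proximal 1 and 2, and 15161 of 19051 and 6003 of 10705 in distal 1 and 2. In the large intestine telocyte-like cells were 3042 of 10367 and trophocyte-like cells 610, and in the cecum they were 587 and 882 of 13207. Large bowel cells also formed clusters of their own. A cluster led by *Adam23*, *Postn* and *Fgf10*, with 2561 cecum cells and 2621 large intestinal cells of 5198 in all, held *Agt* at 282 and 91.7 CPM in the cecum and large intestine. Of the SEMF-gated cells of the large bowel 44.4% lay in it and 15.7% in a cluster led by *Nrg1* that also held telocyte-gated cells, and most of the rest lay in a cluster not reported here. The SEMF-like clusters of the small intestine, led by *Itga8* and *Mmp10* or by *Frmd5* and *Mmp10*, held *Agt* at 78.2 to 121 and 77.5 to 117, and were not among the clusters in which the SEMF-gated cells of the large bowel mainly lay. *Ednrb* in the *Adam23* cluster was 2.87 and 7.03. *Ace* in the universal fibroblast cluster led by *Has1* was 59.7 in the cecum library and 15.7 in the large intestinal one. By the gate, the 2531 *Ace* UMIs of the cecal fibroblast-like cells lay to 1504 in universal fibroblast-like cells, to 131 in trophocyte-like cells and to 880 in the other fibroblasts. Of the *Ednrb* UMIs of fibroblast-like cells, 4057 of 6085 in the cecum and 11101 of 14554 in the large intestine lay in telocyte-like cells. Mean *Ednrb* in the small intestine and the large bowel was 1467 and 630 CPM in telocyte-like and 7.46 and 6.89 in trophocyte-like cells. It was 3.58 and 34.4 in SEMF-like, 2.95 and 5.40 in universal fibroblast-like and 11.6 and 49.5 in other fibroblast-like cells. How much of each regional difference belonged to the make-up of the class was not tested.

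**Figure D4:**
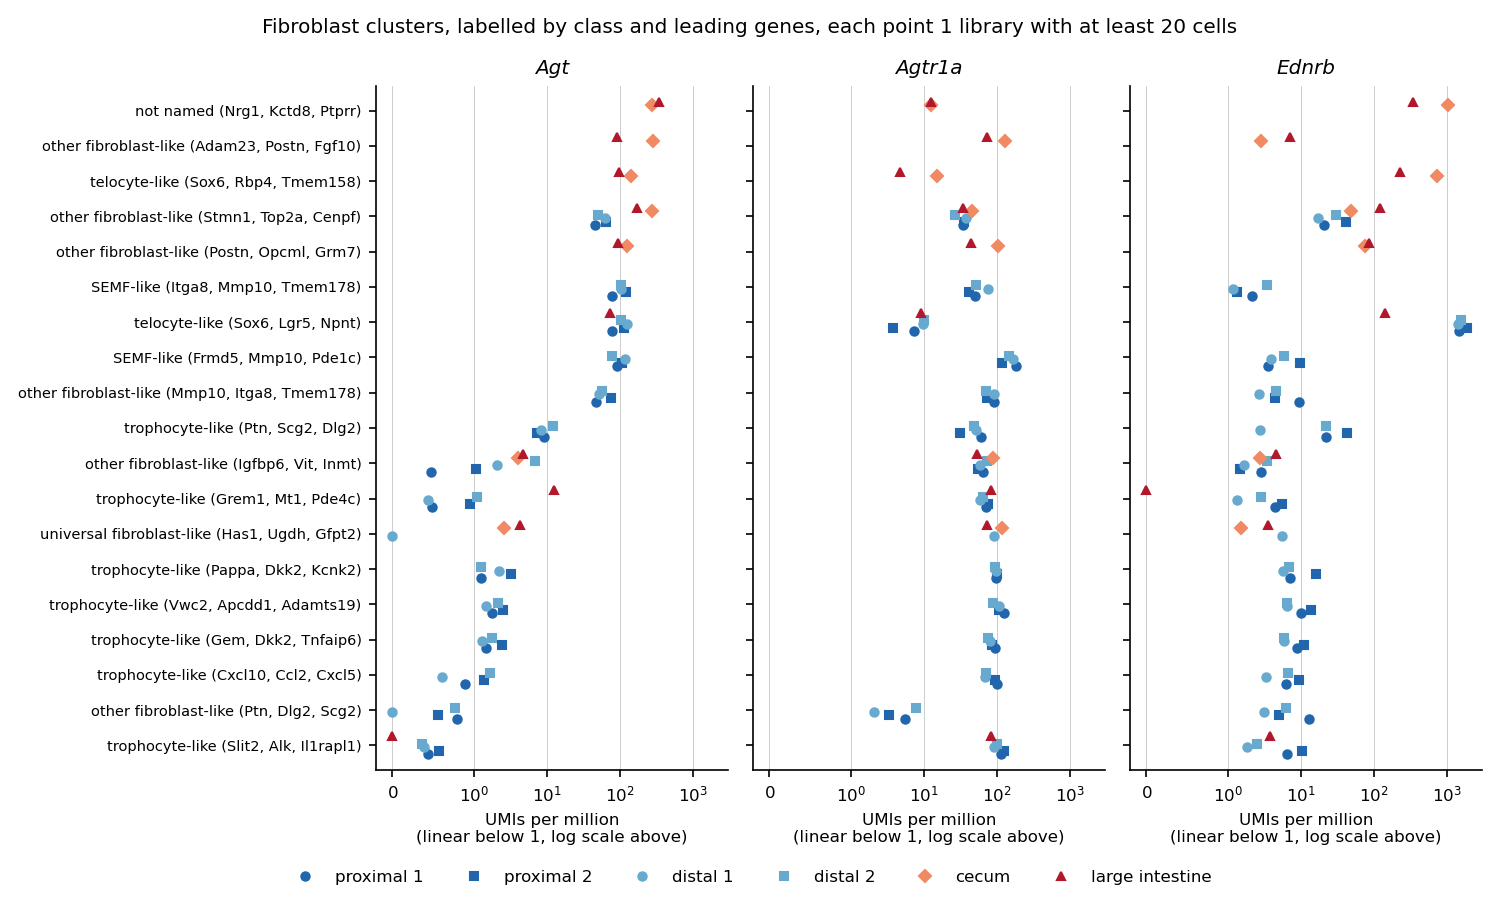
Level of *Agt*, *Agtr1a* and *Ednrb* (horizontal axes, CPM, linear below 1 and log scale above) in fibroblast clusters (rows, named by class and leading genes), with 1 point per library of at least 20 cells. *Agt* is high in the telocyte-like and SEMF-like clusters, in the *Nrg1* cluster and in several clusters of the other fibroblasts, and low in trophocyte-like clusters, while *Ednrb* stands out in the 2 other telocyte-like clusters and the *Nrg1* cluster. The *Nrg1* cluster was named telocyte-like by its marker scores and is labelled as not named here.

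In LEC-like cells, 228 of the cecum and 257 of the large intestine, the members were read the same way. Of 8 tested members 3 were higher in the large bowel and 1 lower, where 20.4% of 14105 genes were called (median log2 fold 0.21 over the members and -0.02 over all genes), and *Edn1* and *Edn3* were too low to test. *Npr3* was 9.53, 9.46, 8.84 and 12.8 CPM in the small intestinal libraries and 0.806 and 0 in the cecum and large intestine (adjusted p = 0.00136). That was 1107 UMIs against 1, a pooled ratio of 36.8 with a 95% counting interval of 6.58 to 1453. The fitted log2 fold of -5.14 moved to -3.72 without the large intestine (adjusted p = 0.0292) and the call also held without the cecum (adjusted p = 0.00651), where the large bowel was at 0 and no fold is given. Lymphatic *Npr3* was thus seen at this depth almost only in the small intestine. Pooled *Npr3* was lower in the large bowel in other classes too. It was 16.4 against 3.17 CPM in BEC-like cells (4 UMIs in the large bowel), 92.5 against 10.6 in telocyte-like and 68.8 against 14.8 in pericyte-like cells. It was higher there in SEMF-like (0.987 against 4.74) and other fibroblast-like cells (4.25 against 7.19). *Ace* was 1.45 to 2.52 against 10.5 and 11.8 (2.55 ± 0.35, adjusted p = 0.00142). *Ednra* was 1.98 to 3.11 against 6.45 and 6.81 (1.38 ± 0.35, adjusted p = 0.0234) and was lost without the cecum (1.36, adjusted p = 0.0936) or the large intestine (1.31, adjusted p = 0.16). *Agt* was 0.752 to 1.67 against 2.42 and 6.36 (1.69 ± 0.48, adjusted p = 0.0342) and was lost without proximal 1 (1.68, adjusted p = 0.0616) or the large intestine (0.69, adjusted p = 0.685). Both calls were also lost without cells of several hashtags (*Ednra* 1.25, adjusted p = 0.0805, and *Agt* 1.40, adjusted p = 0.0697) and with a stricter gate (1.25, adjusted p = 0.108, and 1.75, adjusted p = 0.0507), and that of *Ednra* with a stricter cell filter (1.24, adjusted p = 0.101) or unsupervised clusters (1.57, adjusted p = 0.0728). Without the large intestine 2 members were called, where 8.54% of all genes were. In barcodes with at most 100 UMIs, taken as free RNA, *Agt* was 6.42 to 28.2 CPM in the small intestinal libraries and 131 and 139 in the large bowel ones, and *Ednra* 33.6 to 52.7, 46.6 and 154. With 10% of each profile subtracted along the free RNA, *Ace* and *Npr3* were called and *Agt* and *Ednra* were too low to fit. *Ednrb* in LEC-like cells was 64.1 to 123 in the small intestine and 63.7 and 64.1 in the large bowel (-0.57 ± 0.24, adjusted p = 0.125). It passed without proximal 1 (-0.69, adjusted p = 0.035), with no filter on low counts (-0.64, adjusted p = 0.0157), with a stricter gate (-1.17, adjusted p = 0.0153) and with unsupervised clusters (-0.82, adjusted p = 0.0399), and was smaller with the 4 libraries of 1 hashtag set (-0.25, adjusted p = 0.448).

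*Ednrb* had other regional folds in both classes, of which the fibroblast-like one was a sum over subsets with other shares in each region. The large bowel difference in LEC-like cells minus that in fibroblast-like cells was -3.32 ± 0.51 on the log2 scale (edgeR interaction, adjusted p = 0.00584), 1 of 10 members called, where 9.79% of all genes were called. For *Npr3* it was -5.19 ± 1.59 (adjusted p = 0.0783).

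The telocyte-like, pericyte-like and smooth muscle-like cells were compared between regions after their levels had been seen. Cells that passed the telocyte gate were not of 1 kind in both regions: 84.3% of the small intestinal ones lay in a cluster led by *Sox6*, *Lgr5* and *Npnt*, and 50.2% and 42.7% of the large bowel ones in a cluster led by *Sox6*, *Rbp4* and *Tmem158* and in one led by *Nrg1*, *Kctd8* and *Ptprr*. *Nrg1* is on the SEMF list, and none of the leading genes of that last cluster was on the telocyte list. Its marker scores still named it telocyte-like, and the alternative with unsupervised clusters counted it so. By cluster, *Ednrb* was 1442, 1878, 1393 and 1536 CPM in the *Lgr5* cluster of the small intestinal libraries and 141 in its 33 cells of the large intestine. The *Rbp4* cluster held 719 in the cecum library and 227 in the large intestinal one and the *Nrg1* cluster 1014 and 344. In each of these clusters the large intestine thus had the lowest level. For the gated cells as a whole, with that limit, 1 of 7 tested members was called (background 16.2%, medians -0.51 over the members and -0.02 over all genes), with *Ace*, *Edn1* and *Nos3* not tested. *Agt* was 69.4, 108, 123 and 93.7 against 219 and 195 (1.17 ± 0.21, adjusted p = 0.00764). It fell short with the 4 libraries of 1 hashtag set (1.21, adjusted p = 0.0772) and with a stricter gate (1.15, adjusted p = 0.0763). *Ednrb*, at 1269.6 to 1763 against 919 and 341, did not pass in the edgeR fit (-1.14 ± 0.36, adjusted p = 0.0558) and passed without the cecum (-2.02, adjusted p = 0.00136), when 3 members and 8.47% of all genes were called. It also passed with limma-voom (-1.28, adjusted p = 0.0329), DESeq2 (-1.13, adjusted p = 0.0251), no filter on low counts (-1.08, adjusted p = 0.000107) and unsupervised clusters (-1.28, adjusted p = 0.0497), so that the call turned on the processing. *Edn3*, at 10.2 to 17.2 against 20.4 and 26.1, did not pass either (0.85 ± 0.27, adjusted p = 0.0567). *Ednra*, at 482 to 671 against 339 and 438, did not pass (-0.51, adjusted p = 0.104), but did with DESeq2 (-0.51, adjusted p = 0.0493) and with unsupervised clusters (-0.77, adjusted p = 0.0248). *Npr3* had a log2 fold of -1.72 and did not pass.

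In pericyte-like cells 2 of 6 tested members were called (16.4%; medians -0.17 and 0.02), with *Ace*, *Edn1*, *Edn3* and *Nos3* not tested. *Ece1* was 125, 99.9, 110.1 and 121 against 263 and 214 (1.10 ± 0.17, adjusted p = 0.00137), without overlap. *Npr3* was 51.7, 28.4, 30.6 and 99.2 against 29.8 and 11.4 (-1.80 ± 0.54, adjusted p = 0.0382), and was lost without distal 2 (-1.12, adjusted p = 0.104) or the large intestine (-0.96, adjusted p = 0.442), when 1 member was called and 12.6% and 4.42% of all genes. Its call was also lost with free RNA subtracted (-1.79, adjusted p = 0.0694), unsupervised clusters (-1.36, adjusted p = 0.0942) or the 4 libraries of 1 hashtag set (-1.41, adjusted p = 0.113). The receptors *Ednra*, at 532 to 641 against 511 and 637 (0.05 ± 0.16, 95% interval -0.26 to 0.36), and *Agtr1a*, at 138 to 275 against 188 and 132 (-0.06 ± 0.25, -0.55 to 0.42), did not pass. Of the pericyte-like cells 65.1% in the small intestine and 17.4% in the large bowel lay in a cluster that also held *Myh11* and *Tagln* among its leading genes, and 32.2% and 80.5% in one led by *Notch3* and *Rgs4*.

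In smooth muscle-like cells 2 of 7 tested members were called (14.4%; medians -0.49 and -0.02), with *Edn1*, *Edn3* and *Nos3* not tested. *Agt* was 151, 101, 123 and 117 against 206 and 229.8 (0.93 ± 0.17, adjusted p = 0.00576). *Ece1* was 172, 171, 176 and 195 against 119.6 and 118 (-0.49 ± 0.14, adjusted p = 0.0455), and was lost with DESeq2 (-0.48, adjusted p = 0.0985), with free RNA subtracted (-0.50, adjusted p = 0.0593), with 1 hashtag set (-0.45, adjusted p = 0.204) and whichever of the 6 libraries was left out, with log2 folds of -0.52 to -0.44 and adjusted p of 0.0505 to 0.183; without any 1 library other than the cecum 1 member was called, with 6.14 to 15.9% of all genes. *Ace*, at 8.76 to 17.8 against 7.22 and 0.566, did not pass (-1.89 ± 0.67, adjusted p = 0.0817) and passed without the cecum (-4.24, adjusted p = 0.0194) and with no filter on low counts (-1.93, adjusted p = 0.00284). The small intestinal cells lay to 73.9% in a cluster led by *Hhip*, *Npnt* and *Myh11* that held markers of several classes, the large bowel ones to 74.9% in one led by *Actg2*, *Myh11* and *Cnn1*.

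The regional log2 folds of *Ece1* were 1.10 in pericyte-like and -0.49 in smooth muscle-like cells, the latter with the limits just given. The difference of the regional log2 folds was -1.55 ± 0.19 for smooth muscle-like minus pericyte-like cells (edgeR interaction, adjusted p = 0.000478, background 2.89%) and -1.59 ± 0.25 for telocyte-like minus pericyte-like cells (adjusted p = 0.00458, background 2.42%). The latter moved to -1.38 without the large intestine (adjusted p = 0.0563). *Ednra* differed between telocyte-like and smooth muscle-like cells by -1.0 ± 0.20 (adjusted p = 0.0207, background 1.85%), and this was lost without proximal 1, proximal 2 or distal 2 (-1.01, -0.97 and -0.99, with adjusted p of 0.0517, 0.055 and 0.0512) and without the large intestine (-0.75, adjusted p = 0.223) or with a stricter gate (-0.96, adjusted p = 0.066).

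**Figure D5:**
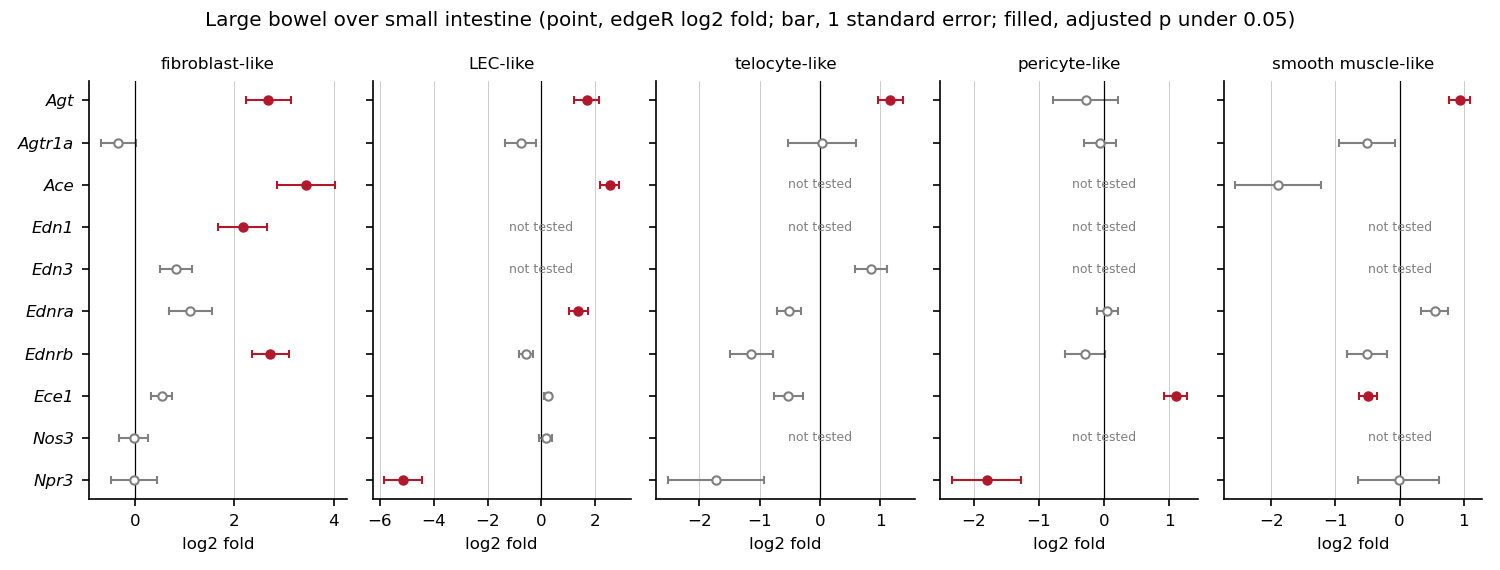
Log2 fold of each member (rows) between the large bowel (cecum and large intestine) and the small intestine (4 libraries) in 5 cell classes (panels); points are edgeR estimates, bars 1 standard error, filled points adjusted p under 0.05, and genes too low to test are marked. *Agt* lies to the right of 0 in 4 classes and at -0.28 in pericyte-like cells, and *Npr3* lies furthest left in LEC-like cells.

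The pathway list was read in the regional fits too, where 31.1, 20.4, 16.2, 16.4 and 14.4% of all genes were called in the order below. It gave, for the large bowel over the small intestine, 11 higher and 3 lower of 35 tested in fibroblast-like cells, among them *Bdkrb2* (10.6 ± 4.08 CPM, n = 4, against 73.0 and 189.8) and the angiotensin-lineage genes *Ren1*, at 0.101 ± 0.038 against 0.626 and 0.968, and *Agtr2*, at 0 to 0.0189 against 0.204 and 0.318, the latter 2 scarce in both regions. *Apela*, an apelin receptor ligand, was listed at 0 in all 4 small intestinal libraries of the fibroblast-like and of the smooth muscle-like cells, and at 0.374 to 0.459 and 13.0 to 13.4 in the large bowel ones. In LEC-like cells 6 of 21 were higher and 3 lower, with *Ddah1*, which removes inhibitors of nitric oxide synthase, at 11.6 to 21.3 against 146 to 186 (3.32 ± 0.21, adjusted p = 1.95e-05), and *Gucy1a1*, a subunit of the nitric oxide receptor, at 217 to 282 against 579 to 596 (1.23 ± 0.13, adjusted p = 0.000341). Telocyte-like cells had 4 of 17 higher and 3 lower, with *Aplnr* at 52.0 ± 14.1 against 2.74 and 5.66 and *Pde5a* at 111 ± 16.5 against 383 and 444. In pericyte-like cells 3 of 19 were higher and 2 lower, with *Enpep* at 18.4 to 78.9 against 125 and 185 (1.41 ± 0.25, adjusted p = 0.00306). Smooth muscle-like cells had 2 of 21 higher and 2 lower, with *Enpep* at 7.70 to 11.5 against 1.70 and 2.06 (-2.29 ± 0.50, adjusted p = 0.0138).

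Along the small intestine edgeR without a block called no member between distal and proximal libraries. In fibroblast-like cells the count was 0 of 10 (background 0.0103%, 2 of 19346 genes), with 2 members and 671 genes at an unadjusted p under 0.05, and in LEC-like cells 0 of 9 (background 0%), with 1 member and 486 genes. limma-voom called 0 in both. DESeq2 called 1 in fibroblast-like cells, where it called 0.863% of all genes (154), and 0 in LEC-like cells. *Ednrb* came nearest, at 18.4 and 21.8 in the proximal and 8.58 and 13.0 in the distal fibroblast-like cells (-0.87 ± 0.19, adjusted p = 0.696). DESeq2 called it (-0.87, adjusted p = 0.0327). Of the 42 pathway genes 0 of 32 and 0 of 23 were called.

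The genes most like each member were read over 72 profiles, 1 per library and class with at least 20 cells. Fibroblast-like cells entered as their subsets and not as a whole. Pearson's r of log2(CPM + 1) was taken among 15855 genes. Profiles of 1 library share their depth, so the values are a description. *Agt* was closest to *Gm36440* (0.88) and *Foxl1* (0.87), a gene on the SEMF marker list, *Agtr1a* to *Adamts12* (0.87), *Ace* to *Mcf2l* (0.79) and *Edn1* to *Mcf2l* as well (0.94). *Nos3* was closest to *Fam110d* (0.96), *Ece1* to *Nfat5* (0.86), *Edn3* to *Armh4* (0.85) and *Ednrb* to *Tm4sf1* (0.81). *Ednra* was closest to *Gm13889* (0.92), with its opposite-strand neighbour *4933431K23Rik* next (0.91), and *Npr3* to *Abcc9* (0.81), a gene on the pericyte marker list.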

How the data were processed

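Single-cell libraries were made with 10x Genomics Chromium 3′ chemistry from sorted tdTomato+ lamina propria cells of 6 samples. Cell Ranger was run by the authors against mm39, to which the tdTomato sequence had been added, and they deposited unfiltered counts of UMIs per gene and barcode, which were used as deposited. The labels name version 8.1.0 and the matrix headers 8.0.1. The doublet and free RNA removal of the study is not part of these counts. The study's limits for a cell were applied, namely 1000 to 7500 genes detected, a total of 2500 to 40000 UMIs, and less than 10% of them mitochondrial. The members and gene lists were chosen with earlier results of these data known. Cells were placed by the mean log level of fixed marker lists, with thresholds set after clusters were seen, and cells with markers of several classes were left out in place of a doublet caller. Of all kept cells 11.1% carried several hashtags, and each pair of libraries shared 38 to 118 barcodes. Leiden clustering without the members gave 38 clusters as an alternative.

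UMI counts were summed per library and class of at least 20 cells and tested with edgeR 4.0.16 in R 4.3.3 (filterByExpr, TMM, quasi-likelihood test, two-sided, Benjamini-Hochberg adjustment over all genes tested, threshold 0.05), with the library as a block where classes were compared. limma-voom (limma 3.58.1), DESeq2 1.42.0, other filters, gates and clusters, subtraction of 10% free RNA and leaving out each library were alternatives. The fits were tested on simulated counts with known changes. Of the pathway list, up to 4 genes were named per comparison, the called ones with the largest folds whose libraries do not overlap. The regional comparisons in telocyte-like, pericyte-like and smooth muscle-like cells and the interactions were added after seeing the data. Intervals of ratios and shares cover counting error at 95% only. Intervals of log2 folds were built from a normal quantile times the SE, which is too narrow for so few libraries. Promoters came from a RefSeq table and were placed on GRCm39 by exact match, gene positions from GENCODE. The table held 8 of the 10 members. The values of 1 pathway gene and of 2 fibroblast clusters are not reported here. Replicate numbers of the labels could pair the proximal and distal libraries, and with 2 pairs they were not taken to do so.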

Additional observations from a re-analysis of the deposited data

Results flagged for a closer look

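Of 66 groups of 4 small intestinal libraries, 2 held a library whose gap to its nearest neighbour passed Dixon's critical value, where chance gives about 1 in 20. *Ednra* in B or plasma cell-like cells was 13.9 CPM in distal 2 against 1.84 to 3.29 in the other small intestinal libraries. *Ednrb* in myeloid-like cells was 119.8 in distal 2 against 0 to 15.7 in the other small intestinal libraries.

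The regional difference of a gene itself differed between classes in 4 cases, each by an edgeR interaction. Up to 10 members were read in each of 4 pairs of classes. The shares of all genes called were 9.79, 2.42, 2.89 and 1.85% in the order of the values below. The log2 difference was -3.32 ± 0.51 for *Ednrb* in LEC-like minus fibroblast-like cells (adjusted p = 0.00584). For *Ece1* it was -1.59 ± 0.25 in telocyte-like minus pericyte-like cells (adjusted p = 0.00458) and -1.55 ± 0.19 in smooth muscle-like minus pericyte-like cells (adjusted p = 0.000478). The former *Ece1* value moved to -1.38 without the large intestine. For *Ednra* it was -1.0 ± 0.20 in telocyte-like minus smooth muscle-like cells (adjusted p = 0.0207). The *Ednra* call was lost with a stricter gate (-0.96, adjusted p = 0.066). It was also lost without proximal 1, proximal 2 or distal 2 (adjusted p of 0.0517, 0.055 and 0.0512). Without the large intestine the value was -0.75. The telocyte-like, pericyte-like and smooth muscle-like cells were spread over clusters in other shares in each region, and the make-up of the fibroblast-like cells differed between regions. The part of this in the 4 values was not tested.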

How the results depend on the processing

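Of 996 alternative values for 71 single results, 916 kept direction and call, 61 lost the call, 17 gained it and 2 turned. Of 187 alternative counts of called members, 160 stayed within 1.5 times. Between large bowel and small intestine the LEC-like count of 4 became 2 with 10% free RNA subtracted and 2 without cells of several hashtags, where 19.3% and 19.7% of all genes were called. The telocyte-like count of 1 became 2 with limma-voom, 3 with DESeq2, 3 with no filter beyond 1 UMI, 3 with unsupervised clusters, 0 with a stricter gate and 0 with the 4 libraries of 1 hashtag set, where 19.6, 19.9, 10.8, 20.6, 4.37 and 2.53% of all genes were called. The pericyte-like count of 2 became 1 with free RNA subtracted and 1 with 1 hashtag set (11.3% and 6.5% of all genes). The smooth muscle-like count of 2 became 1 with DESeq2, 1 with free RNA subtracted, 1 with 1 hashtag set and 5 with no filter (10.4, 11.3, 7.21 and 11.9% of all genes). With unsupervised clusters, which left 2 libraries, the sign of smooth muscle-like against fibroblast-like turned for *Ednrb* (-0.15) and *Nos3*. The *Nos3* fit returned -7.40 (edgeR, adjusted p = 0.714). With only 14 *Nos3* UMIs in all gated smooth muscle-like cells, this value is neither a measured size nor evidence of a reversal. The cause of the other changes was not tested.

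The share of all genes called is not given for every fit here, so the ranges do not show how steady the members were. Leaving out 1 library gave 6 to 7 called members for LEC-like, 7 to 7 for pericyte-like and 5 to 8 for smooth muscle-like against fibroblast-like cells. It gave 5 to 8 for BEC-like against LEC-like cells, with 49.6% of all genes called at the count of 5 and 57.4% with all libraries. It gave 8 to 8 for SEMF-like against trophocyte-like and 6 to 7 for telocyte-like against SEMF-like cells. For large bowel against small intestine it gave 3 to 7 in fibroblast-like, 2 to 4 in LEC-like, 1 to 3 in telocyte-like, 1 to 2 in pericyte-like and 1 to 3 in smooth muscle-like cells, and for distal against proximal 0 to 0 in both classes. The share of all genes called moved too, and was 18.6% for the 7 in fibroblast-like, 8.54% for the 2 in LEC-like and 8.47% for the 3 in telocyte-like cells.

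DESeq2 called 1 member between distal and proximal fibroblast-like cells, where 0.863% of all genes were called, against 0 with edgeR. The replicate numbers were checked for pairing: same-numbered libraries correlated at 0.378 in fibroblast-like and 0.152 in LEC-like cells, over 2 pairs. With a replicate block 1 member was called in fibroblast-like cells (*Ednrb*, -0.88, adjusted p = 0.00833), where 1.2% of all genes (232) were called, and 0 in LEC-like cells. The single cecum and large intestinal libraries, the 28 pericyte-like cells of distal 1 and the low counts of *Edn1* and *Edn3* limit these comparisons.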

Other observations

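Renin, the enzyme that cuts the product of *Agt*, was found in the pericyte-like cells of 1 library. *Ren1* had 185 UMIs in 4 of 98 pericyte-like cells of the cecum, 165 of them (89.2%) in 1 cell, and 0 in the pericyte-like cells of the other 5 libraries. A cluster of other fibroblasts led by *Ptn*, *Dlg2* and *Scg2* held *Edn3* at 20.6, 34.2, 26.0 and 19.4 CPM in proximal 1, proximal 2, distal 1 and distal 2, and was seen with at least 20 cells in the small intestine only. In each of these libraries its *Edn3* level was above that of the telocyte-like cells.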
